A study of Homo sapiens with 18 samples.

Results

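HERVH is a family of class I (gammaretrovirus-like) human endogenous retroviruses, and its transcripts were examined here copy by copy in IMR90, a line of human foetal lung fibroblasts, after activation of p53. The members are all repeat copies annotated as HERVH-int, the internal part of the provirus, or as LTR7, LTR7A, LTR7B, LTR7C or LTR7Y, the long terminal repeats (LTRs) that flank it. They were chosen by exact repeat name. The deposited count table of the 5-fluorouracil (5-FU) experiment lists 9397 such copies among 2404193 repeat copies: 5781 HERVH-int, 2300 LTR7, 783 LTR7B, 284 LTR7C, 238 LTR7Y and 11 LTR7A. The table of the Nutlin experiment lists 9179 among 1996647, and 9154 copies stand in both tables.

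A provirus carries an internal part with the former viral genes between 2 LTRs, and the LTR holds the promoter and the polyadenylation signal. Recombination between the 2 LTRs of a provirus leaves a solo LTR without an internal part. HERVH is best known for its transcription in human pluripotent stem cells, where LTR7 acts as its promoter, and the LTR7B, LTR7C and LTR7Y subfamilies differ from LTR7 in sequence and in the embryonic stages at which they are active. In differentiated cells the family is generally held to be little transcribed. The tumour suppressor p53 is a transcription factor that binds, among other places, LTRs of several other class I retrovirus families.

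Total RNA was sequenced from 18 samples, 2 replicates in each of 9 groups. Nutlin, which frees p53 by blocking its inhibitor MDM2, was given at 5 µM for 6 h. 5-FU, a pyrimidine analogue that damages RNA and DNA metabolism and thereby activates p53, was given at 375 µM for 6, 12 or 24 h. Each of these 4 drug groups has its own DMSO group of the same duration, with the vehicle at an equal volume, and the untreated cells received fresh medium 12 h before extraction. All groups are the same cell line with no genetic change, and no p53-deficient cells were analysed here. Nothing in the labels says that replicates came from separate cultures, so the p-values measure only the spread between these samples, which may be technical.

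The data are read counts per annotated copy, with coordinates on hg19. Libraries of the 5-FU experiment held 2412334 to 6290320 counts in all, with 0.0367% to 0.0537% of them on members. Those of the Nutlin experiment held 9109885 to 11880265, with 0.0136% to 0.0194% on members. In the Nutlin table the columns of both untreated replicates had the same count at every row and were counted as 1 library. At 345 of 394 member copies with a count in either, that library and the first untreated one of the 5-FU experiment have equal counts, so the untreated cells of both tables are not separate evidence. Members held 1875 of 9669973 counts in that library of the Nutlin table. They held 1853 of 3481300 in the first untreated library of the 5-FU table. The tables list repeats only, so neither fibroblast markers nor p53 target genes were checked. In bulk RNA, fewer cells that transcribe a copy and less RNA per cell cannot be told apart. No hg19 sequence was used, so copies are given by coordinates, without bases and without gene context.

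Most member copies had no reads. Of the 9397 copies in the 5-FU table, 1823 (19.4%) had at least 1 count in at least 1 of 14 libraries, against 58.4% of all repeat copies, 35.0% of copies of the other class I internal names listed for comparison and 32.1% of copies of their LTR names. By name, HERVH-int had counts at 17.5% of copies and LTR7 at 18.8%. LTR7B had counts at 31.3%, LTR7C at 26.1%, LTR7Y at 24.4%, and LTR7A at 5 of 11 copies. Of the 9179 member copies in the Nutlin table, 913 (9.95%) had a count, against 44% of all repeat copies. The members thus had counts at a smaller share of copies than repeats in general in both tables.

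The counts that were present lay on few copies. Of the 9397 member copies of the 5-FU table, 58 held 50% of all member counts. For the other class I names, 46 of 8430 internal copies and 105 of 20001 LTR copies held 50% of theirs. Among all 2404193 repeat copies 739 did so. Such concentration was therefore not particular to members. One solo LTR7C copy, chr14:24408785-24409253, held 55.1% of all LTR7C counts, and the most abundant LTR7 copy, chr1:70833312-70833744, held 20.1% of LTR7 counts. The most abundant HERVH-int copy held 5.33% of HERVH-int counts. A statement on LTR7C as a name is therefore in large part a statement on 1 copy. When member copies less than 10 kb apart were joined, 561 of 1191 joined regions with both HERVH-int and an LTR had a count and together held 64.6% of member counts. Another 35.1% lay in 342 of 1106 regions with LTRs alone.

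Per length, the LTRs were covered more densely than the internal part. Density is given as CPM, counts scaled to a library of 1000000 after correction for library composition, per megabase of annotated copies. HERVH-int had a mean density of 35.7 CPM per Mb in the 5-FU table. LTR7Y had 86.1, LTR7A 126, LTR7 128, LTR7B 273 and LTR7C 508 CPM per Mb. The density of the LTR names together exceeded that of HERVH-int in 14 of 14 libraries of the 5-FU table, by a median of 4.95-fold (range 3.45 to 9.47), and in 5 of 5 libraries of the Nutlin table, by a median of 8.71-fold. LTR7C was denser than LTR7 in all 14 libraries (median 3.94-fold), as was LTR7B (median 2.15-fold). Over the libraries HERVH-int ranged from 22.5 to 46.5 CPM per Mb, LTR7Y from 39.0 to 135, LTR7A from 0 to 434 and LTR7 from 84.1 to 173. LTR7B ranged from 189.9 to 326 and LTR7C from 317 to 716 CPM per Mb. Of neighbours in this order, only LTR7 and LTR7B had ranges that did not overlap.

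Set beside other class I families, HERVH-int stood low. The HERVH-int density was above that of only 1 of 27 other internal names present, whose median was 186 CPM per Mb in the 5-FU table. LTR7 was above 5 of 50 other LTR names, LTR7Y above 4, LTR7B above 27 and LTR7C above 40, with a median of 241 CPM per Mb over the 50. The Nutlin table gave 1 of 27 for HERVH-int and 7, 3, 29 and 40 of 50 for LTR7, LTR7Y, LTR7B and LTR7C. Without its most abundant copy LTR7C had 223 CPM per Mb in the 5-FU table and was above 22 of 50 names, and above 21 in the Nutlin table. Its density thus rested in large part on that copy. The other names kept their most abundant copies in these ranks and in those that follow, so the ranks set unlike measures side by side. LTR7B without its own had 240.5 CPM per Mb and was above 24, and HERVH-int was still above 1 of 27.

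Coverage along the HERVH-int consensus was uneven, as the profile over the internal part shows. Counts of each copy were spread evenly over the part of the consensus it covers, in bins of 500 bases. The first bin, next to the 5′ LTR, had 69.8 CPM per Mb and the next bin 24.0. Without the most abundant copy in it, the first bin had 48.1, and without its 10 most abundant copies 23.4. The other bins kept their most abundant copies, so whether the peak at the start of the consensus rested on a few copies was not tested. Bins from 501 to 6000 ranged from 23.4 to 40.8 CPM per Mb. The bin at 7001 to 7500 had 65.5 CPM per Mb. That became 32.4 without a set of copies on chromosome 16, described below and called near-identical for their shared layout. The bins from 6001 to 6500 and from 6501 to 7000 are reached by only 243 and 165 copies.

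**Figure D1:**
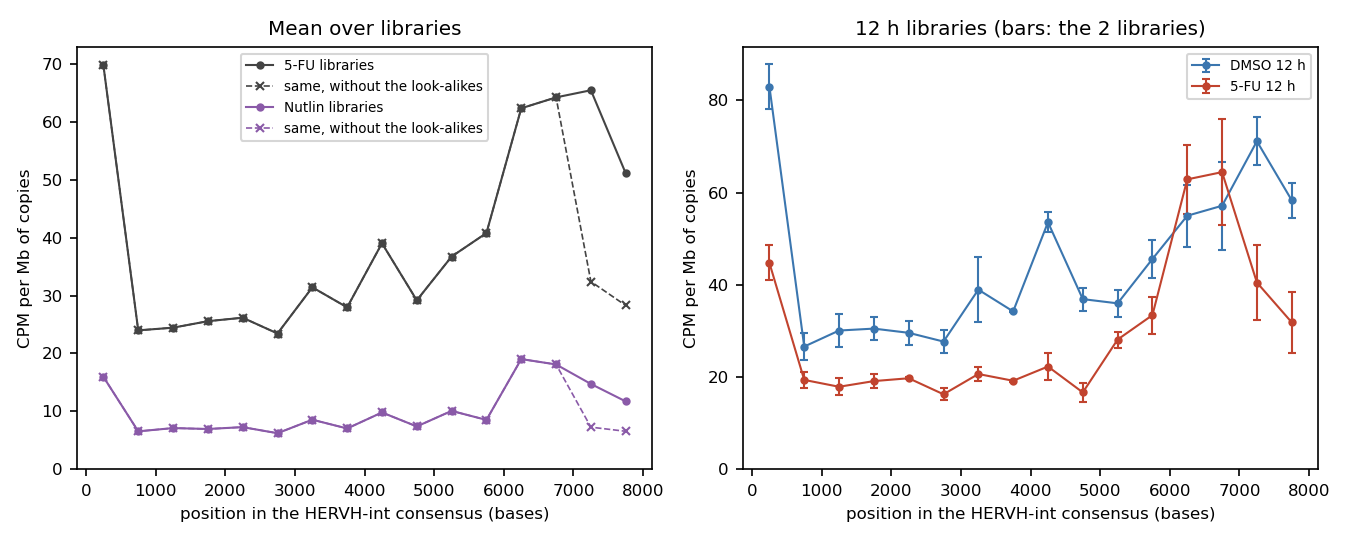
Density of counts along the HERVH-int consensus in bins of 500 bases (horizontal axes, consensus position in bases; vertical axes, CPM per Mb of annotated copies). Left, means over the libraries of the 5-FU table (grey) and of the Nutlin table (purple), with dashed lines without the near-identical chromosome 16 copies; right, the 12 h DMSO (blue) and 12 h 5-FU (red) libraries, with bars that span the 2 libraries of a group, where 5-FU lies below DMSO in 14 of 16 bins.

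Copies of the LTR names were split by their distance to the nearest HERVH-int copy. Of 3616 LTR copies in the 5-FU table, 2395 lay within 10 kb of HERVH-int (near) and 1221 lay farther away (solo). Solo copies had counts more often, at 30.3% of copies against 18.5%. Their density was 347 CPM per Mb against 106 for near copies. The density of solo copies was higher in 14 of 14 libraries of the 5-FU table, by a median of 3.25-fold (range 2.44 to 4.01), and in 5 of 5 of the Nutlin table, by a median of 3.80-fold. Leaving out the most abundant copy of each side gave a median of 3.32-fold in the 5-FU table. Within the name LTR7 solo copies had 263 CPM per Mb and near copies 82.5. Within LTR7C the values were 769 and 153. LTR7B differed less, with 303 for solo and 239 for near copies.

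Reads on a copy can come from a transcript that starts elsewhere, so each copy abundant enough to be tested was set beside the non-member repeats within 10 kb. Among 86 tested copies of the 5-FU table, 55 were denser than these neighbours, 35 of 44 LTR copies and 20 of 42 HERVH-int copies, and 14 were over 10-fold denser. The median tested LTR copy had 5.17 CPM per kb and its neighbours 1.76. The median tested HERVH-int copy had 0.685 CPM per kb and its neighbours 1.17. Of the 16 tested copies of the Nutlin table, 14 were denser than their neighbours. Tested copies were selected by their counts and their neighbours were not, so these values describe the tested copies and do not compare members with other repeats.

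The 12 h time point of 5-FU gave the clearest differences, and it also has controls that stand apart. Name sums were tested over all 1078 names that passed a filter on low counts in the 5-FU table, and 5 of the 6 member names passed. LTR7A, with 0 to 5 counts per library, did not. At 12 h LTR7, LTR7B and LTR7C rose and HERVH-int fell, which makes 3 names called higher and 1 called lower at an adjusted p under 0.05. Over all names 33.8% were called, 28.5% higher and 5.29% lower. Calls among the LTR names thus came against a high background of higher calls and the HERVH-int call against a low background of lower calls. That holds only for the scaling of libraries used here. Other scalings called 61 to 194 of the 1078 names higher and 182 to 436 lower.

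HERVH-int, the part that encodes the viral proteins, had 204 and 188 CPM in the 12 h DMSO libraries and 133 and 143 CPM in the 12 h 5-FU libraries. Both 5-FU values lie below both DMSO values, and below the 203 to 260 CPM of the 5-FU libraries of 6 and 24 h. They lie between the untreated libraries, at 126 and 195 CPM. Against the 12 h DMSO libraries the log2 fold change was -0.51 ± 0.17 (SE), with an adjusted p of 0.0388 in edgeR's quasi-likelihood test. In the DMSO libraries of 6 and 24 h HERVH-int ranged from 207 to 244 CPM, so the 12 h DMSO level was slightly below these. With the 6 and 24 h DMSO libraries as controls it was -0.71 (adjusted p 0.00356). Each of the 4 fits that left out 1 library of the 12 h groups lost the call, with adjusted p from 0.0819 to 0.17, as did the fit without the most abundant HERVH-int copy (-0.41, adjusted p 0.113).

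LTR7, the LTR of the most HERVH-int copies, had 79.9 and 78.6 CPM in the 12 h DMSO libraries and 162 and 130 CPM in the 12 h 5-FU libraries. The groups did not overlap, and the log2 fold change of 0.88 ± 0.12 (adjusted p 0.000155) stayed called when any 1 library was left out, with adjusted p from 0.000823 to 0.0128. The 12 h DMSO level was below that of the 6 and 24 h DMSO libraries, which had 104 to 111 CPM. The 6 and 24 h 5-FU libraries had 125 to 149 CPM, so the 12 h 5-FU libraries are higher only in part. Untreated libraries had 128 and 132 CPM, with 1 of the 12 h 5-FU values between them. With those DMSO libraries as controls LTR7 was still called, at 0.42 (adjusted p 0.00542).

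LTR7B rose from 58.8 and 56.9 CPM with DMSO to 93.1 and 74.3 CPM with 5-FU, a log2 fold change of 0.53 ± 0.16 (adjusted p 0.0187). The 12 h DMSO values lie below the 6 and 24 h DMSO range of 73.1 to 97.7 CPM, and the 12 h 5-FU values lie within or just below the 6 and 24 h 5-FU range of 75.8 to 93.7 CPM. The untreated libraries, at 85.5 and 78.8 CPM, lie between the 12 h 5-FU values. Against the 6 and 24 h DMSO libraries the log2 fold change turned to -0.07. The call was lost in each fit without 1 of the 12 h libraries (adjusted p 0.0552 to 0.41), and the value was -0.04 when libraries were scaled by their totals alone. Without its most abundant copy LTR7B was at 0.38 (adjusted p 0.0776). It was also not called with RLE size factors, another scaling of libraries (0.25, adjusted p 0.247). The direction of LTR7B at 12 h therefore depended on the controls and on the scaling.

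LTR7C rose from 37.7 and 39.9 CPM to 62.2 and 73.1 CPM, a log2 fold change of 0.80 ± 0.16 (adjusted p 0.00178). The untreated libraries, at 75.1 and 85.4 CPM, lie above both 12 h 5-FU values of LTR7C. Its 6 and 24 h DMSO libraries had 52.7 to 66.6 CPM, and against these the log2 fold change was 0.25 and not called (adjusted p 0.136). The call was also lost without replicate 2 of the 12 h 5-FU group (0.58, adjusted p 0.0604) and without the single most abundant copy (0.50, adjusted p 0.0994). LTR7Y, a scarce subfamily, had 5.97 and 3.51 CPM with DMSO and 8.55 and 9.17 CPM with 5-FU at 12 h. Its log2 fold change of 0.90 ± 0.43 was not called (adjusted p 0.127).

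**Figure D2:**
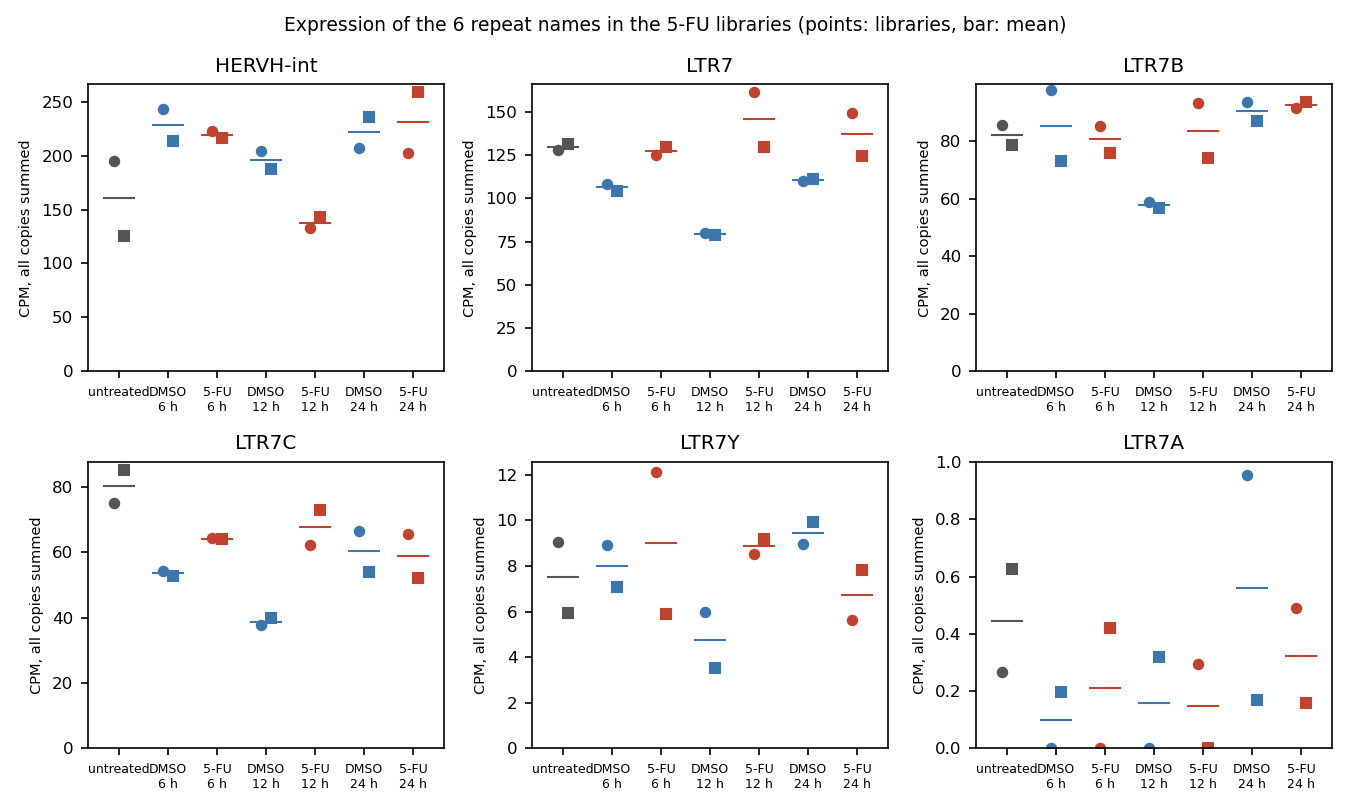
Summed level of each of the 6 member names in each library of the 5-FU table (vertical axes, CPM; horizontal axes, group), with untreated libraries in grey, DMSO in blue, 5-FU in red, circles for replicate 1, squares for replicate 2 and a line at the mean. At 12 h the LTR names other than LTR7A lie higher with 5-FU and HERVH-int lower, and the 12 h DMSO libraries lie below the DMSO libraries of the other times for the same names.

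The size of these changes depends on how libraries are scaled, because the median of all 1078 names moved. That median log2 fold change at 12 h was 0.17 with the scaling used here, -0.11 with RLE size factors and -0.40 with library totals alone, and calls over all names went from 307 higher and 57 lower to 163 and 233, and to 61 and 436. A change of scaling moves all names by nearly the same amount, so the distance of a name from that median is nearly fixed by construction: HERVH-int stood 0.68 below it, LTR7 0.71 above it, LTR7C 0.63 above it and LTR7B 0.36 above it. HERVH-int was called lower under each, with adjusted p of 0.00577 for RLE and 0.000838 for library totals, while LTR7 and LTR7C were not called under library totals (adjusted p 0.0949 and 0.304).

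Other class I families moved at 12 h as well. Of 49 other LTR names tested, 22 were called higher and 0 lower, with a median log2 fold change of 0.45. Of 26 other internal names 5 were called higher and 0 lower, with a median of 0.02. The 2 with the smallest p were LTR17 at 1.52 ± 0.12 and LTR12C at 0.84 ± 0.08. A rise of LTR names at 12 h was therefore not limited to LTR7. No other internal name of the list was called lower, but their log2 fold changes ranged from -1.12 to 2.32. Some uncalled names fell further than HERVH-int (-0.51). Among them were HERVFH21-int at -1.12 ± 0.55 and HERVFH19-int at -0.88 ± 0.44 (adjusted p 0.135 and 0.147 in edgeR's quasi-likelihood test).

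Near and solo LTR copies were each called higher at 12 h against the 12 h DMSO libraries. Near copies had 70.4 and 62.9 CPM with DMSO and 122 and 101 CPM with 5-FU (log2 fold change 0.74 ± 0.14, adjusted p 0.000932). Solo copies had 112 and 116 CPM with DMSO and 204 and 185 CPM with 5-FU (0.77 ± 0.11, adjusted p 0.000142). In the 6 and 24 h DMSO libraries near copies had 88.4 to 111 CPM, a range that overlaps the 12 h 5-FU values, and against these libraries near copies were not called (0.18, adjusted p 0.221) while solo copies were (0.25, adjusted p 0.036). The near call was also lost without replicate 1 of the 12 h 5-FU group (0.49, adjusted p 0.0653) and without the most abundant copy (0.35, adjusted p 0.131), and both calls were lost under library totals (adjusted p 0.436 for near and 0.214 for solo copies). By name, LTR7 rose at near copies (1.14 ± 0.18) and at solo copies (0.65 ± 0.15), and LTR7B and LTR7C were called at solo copies (0.93 ± 0.17 and 0.81 ± 0.17). Of these only LTR7 at near copies was called against the 6 and 24 h DMSO libraries (0.58, adjusted p 0.00574). The solo calls had adjusted p of 0.0778 for LTR7, 0.142 for LTR7B and 0.147 for LTR7C against those libraries. They were also lost without replicate 1 of the 12 h 5-FU group for LTR7 (0.38, adjusted p 0.221) and LTR7B (0.62, adjusted p 0.0519), and without replicate 2 (0.57, adjusted p 0.0752) or the most abundant copy (0.39, adjusted p 0.303) for LTR7C. LTR7B near copies, at -0.14 ± 0.24, were not called, while against the 6 and 24 h DMSO libraries they were called lower (-0.66, adjusted p 0.0182). Without the near-identical copies on chromosome 16 they had 0.67 ± 0.30 (adjusted p 0.10).

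At 6 h no member name was called with 5-FU, nor was any of the 1078 names (0% called). At an unadjusted p under 0.05 there were 126 names, among them LTR7 at 0.26 ± 0.12 (adjusted p 0.416), and DESeq2 called 0 member names. LTR7 had 108 and 104 CPM with DMSO and 125 and 130 CPM with 5-FU, groups that do not overlap. LTR7C had 54.4 and 52.7 CPM with DMSO and 64.4 and 64.0 CPM with 5-FU (0.26 ± 0.15, adjusted p 0.514). HERVH-int had 244 and 213 CPM with DMSO and 223 and 216 CPM with 5-FU, which overlap.

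At 24 h no member name was called, where 12.1% of all names were. LTR7 had 110 and 111 CPM with DMSO and 149 and 125 CPM with 5-FU (0.30 ± 0.12, unadjusted p 0.0216, adjusted p 0.111 in edgeR). It was the only member name at an unadjusted p under 0.05, where 278 of all 1078 names were, and DESeq2 called 0 member names. Without replicate 2 of the 24 h 5-FU group LTR7 was called (0.43, adjusted p 0.0162). HERVH-int had 207 and 236 CPM with DMSO and 203 and 260 CPM with 5-FU. LTR7B had 93.7 and 87.1 CPM with DMSO and 91.7 and 93.7 CPM with 5-FU. Near LTR copies had 103 and 88.4 CPM with DMSO and 128 and 125 CPM with 5-FU (0.40 ± 0.13, adjusted p 0.056), and solo copies 177 and 174 against 185 and 154 CPM (-0.06 ± 0.10). Without the near-identical copies on chromosome 16 the near copies were called at 24 h (0.54 ± 0.14, adjusted p 0.0254). The effect at 24 h minus that at 6 h was called for 0 member names, with 1.11% of all names called, none of the 5 at an unadjusted p under 0.05 and 0 with DESeq2.

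Nutlin at 6 h changed no member name by the test, with 12.7% of all 1028 tested names called. HERVH-int had 46.1 and 42.0 CPM with DMSO and 49.1 and 48.2 CPM with Nutlin (0.14 ± 0.11, adjusted p 0.49). LTR7 had 49.5 and 43.6 CPM with DMSO and 48.7 and 40.9 CPM with Nutlin (-0.05 ± 0.12). LTR7B went from 29.7 and 21.5 to 32.9 and 30.5 CPM (0.31 ± 0.14, adjusted p 0.146) and LTR7C from 23.0 and 28.3 to 31.3 and 32.0 CPM (0.31 ± 0.13, adjusted p 0.135). Those 2 names were at an unadjusted p under 0.05, as were 266 of all 1028 names. Their groups did not overlap, and DESeq2 called 0 member names. LTR7B was called without replicate 1 of the DMSO group (0.52, adjusted p 0.0114). CPM values of both tables are on separate scales and were not compared.

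The ratio of LTR counts to HERVH-int counts within a library does not depend on scaling. It was 0.894 and 0.952 in the 12 h DMSO libraries and 2.45 and 2.00 in the 12 h 5-FU libraries, with no overlap. At 6 h the values were 1.11 and 1.11 with DMSO and 1.29 and 1.28 with 5-FU. At 24 h they were 1.35 and 1.11 with DMSO and 1.54 and 1.07 with 5-FU, which overlap. In log2 units the difference, 5-FU minus DMSO, was 0.21 at 6 h, 1.26 at 12 h and 0.07 at 24 h. Averaged over the 3 times it was 0.51, with a two-sided exact permutation p of 0.0648 over the 216 arrangements of libraries within times (0.13 adjusted over the 2 ratios tested). Without the 12 h libraries the mean was 0.14 (exact permutation p 0.389), so the difference rested on 12 h. With copies named LTR7 alone in the numerator it was 0.65 (exact permutation p 0.0185).

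In the Nutlin table the LTR to HERVH-int ratio was 2.25 and 2.28 with DMSO and 2.35 and 2.19 with Nutlin, a log2 difference of 0.004 that 2 against 2 libraries cannot test below an exact p of 0.333. The 6 h DMSO libraries of the Nutlin table thus had about the ratio of the 12 h 5-FU libraries, and those of the 5-FU table did not. Untreated cells had 1.52 and 2.41 in the 5-FU table, above all 6 DMSO libraries there. The DMSO mean minus the untreated mean was -0.83 in log2 units, with a two-sided exact permutation p of 0.0357, the smallest that the 28 arrangements can give, and 0.0714 adjusted over the 2 ratios. The DMSO libraries span 3 times and the untreated ones do not. For the near to solo ratio the difference was 0.23 (exact permutation p 0.143). In the Nutlin table the LTR to HERVH-int ratio lay the other way. Its 1 untreated library had a log2 ratio of 0.61, below the mean of 1.18 in the DMSO libraries there. The values of both tables are ratios of raw counts, so the separate scaling of the tables does not enter them, but the difference between the tables was not tested.

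The ratio of near to solo LTR counts had its groups apart at 24 h. Its log2 difference, 5-FU minus DMSO, was 0.0006 at 6 h, -0.04 at 12 h and 0.47 at 24 h, with a mean of 0.14 (two-sided exact permutation p 0.213, also after adjustment over the 2 ratios). Nutlin minus DMSO was 0.12. At 24 h the ratio was 0.581 and 0.508 with DMSO and 0.692 and 0.812 with 5-FU, without overlap. Without the near-identical copies on chromosome 16 the mean was 0.32 (exact permutation p 0.0185), for copies named LTR7 it was 0.32 (exact permutation p 0.0463), and without the most abundant copy of each side 0.01 (exact permutation p 0.926).

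**Figure D3:**
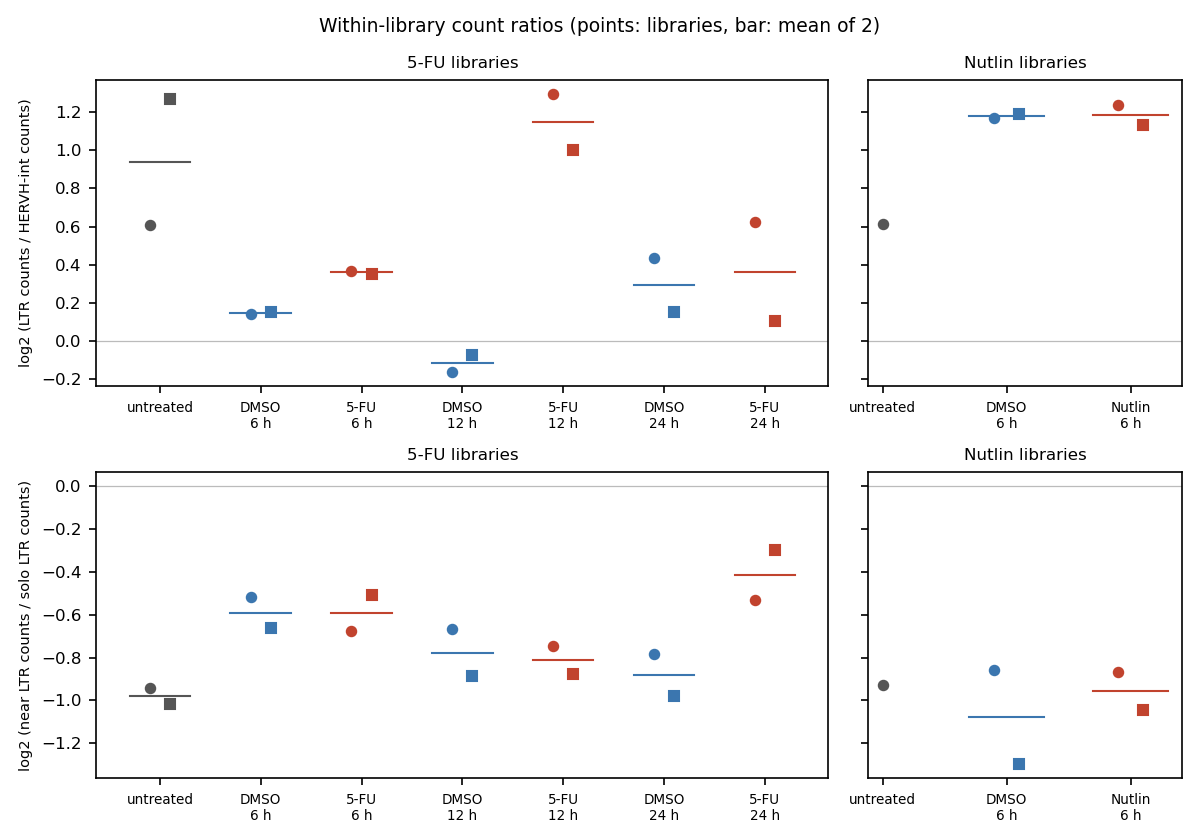
Log2 ratio of LTR to HERVH-int counts and of near to solo LTR counts within each library (vertical axes, log2 ratio; horizontal axis, group; circles replicate 1, squares replicate 2, lines means; untreated grey, DMSO blue, drug red). The LTR to HERVH-int ratio separates 5-FU from DMSO most at 12 h, by 1.26 log2 units, and the near to solo ratio most at 24 h, by 0.47.

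The DMSO libraries of the 5-FU table were also set against the untreated libraries. LTR7 and LTR7C were lower with DMSO, where 11.8% of all names were called, 10.1% lower. LTR7 had 128 and 132 CPM in untreated cells and 78.6 to 111 CPM in the 6 DMSO libraries (-0.41 ± 0.10, adjusted p 0.0164). LTR7C had 75.1 and 85.4 CPM in untreated cells and 37.7 to 66.6 CPM with DMSO (-0.68 ± 0.12, adjusted p 0.00561). No DMSO library of the 5-FU table reached an untreated one for either name. HERVH-int had 195 and 126 CPM untreated and 188 to 244 CPM with DMSO (0.42 ± 0.14, not called, adjusted p 0.0781). These directions did not recur in the Nutlin table, where the contrast was not tested. There HERVH-int had 63.1 CPM in the 1 untreated library and 42.0 to 46.1 CPM with DMSO. LTR7 had 41.2 CPM against 43.6 to 49.5 CPM with DMSO, and LTR7C 24.3 CPM against 23.0 to 28.3 CPM. Both calls were lost without the most abundant copy of the name, with -0.29 (adjusted p 0.051) for LTR7 and -0.18 (adjusted p 0.542) for LTR7C, and without untreated replicate 2. LTR7 was also lost without untreated replicate 1, against the 6 h or 24 h DMSO libraries alone (adjusted p 0.135 and 0.333), and under 4 other scalings (adjusted p 0.0749 with RLE, 0.0577 with library totals, 0.0556 with factors from the name sums and 0.0848 with factors from the filtered copies). LTR7C was called under all 4 (adjusted p 0.00985 to 0.0234) but not against the 24 h DMSO libraries alone (adjusted p 0.17). HERVH-int was called higher in DMSO with RLE (0.56, adjusted p 0.0372), with factors from the name sums (0.45, adjusted p 0.0443) or the filtered copies (0.58, adjusted p 0.0258) and in DESeq2 (0.42, adjusted p 0.0323), and without untreated replicate 1 (0.77, adjusted p 0.0264), but not under library totals (adjusted p 0.158).

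Single copies were tested in fits of all copies that passed the filter, 63602 in the 5-FU table with 86 members and 21328 in the Nutlin table with 16 members. The 86 comprise 42 HERVH-int, 15 LTR7, 21 LTR7B, 7 LTR7C and 1 LTR7Y, of which 58 are near or internal copies with an LTR beside them and 28 solo. They passed because they had enough counts, so their shares do not describe all members.

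At 12 h of 5-FU 6 member copies were called. The 4 higher ones are LTR copies and the 2 lower ones HERVH-int copies. Over all copies 9.71% were called, 5.44% higher and 4.27% lower. The median log2 fold change was -0.42 over the 42 HERVH-int copies, 0.88 over the 15 LTR7 copies and 1.06 over the 21 LTR7B copies, against -0.04 over all tested copies. At an unadjusted p under 0.05 the LTR7 copies had 5 higher and 0 lower, and HERVH-int copies 4 higher and 7 lower. At that threshold were 26 of the 86 members and 16304 of all 63602 tested copies. The share of HERVH-int copies was thus about that of all copies. With the 6 and 24 h DMSO libraries as controls 13 member copies were called, 8 higher and 5 lower. The share of all copies called against those libraries is not given here. The rise from 6 to 13 therefore cannot be read as a result about members.

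The LTR7 copy at chr1:70833312-70833744 abuts HERVH-int and was the most abundant LTR7 copy. It had 35 and 38 counts in the 12 h DMSO libraries and 164 and 119 in the 12 h 5-FU libraries, or 13.0 and 14.5 against 48.2 and 34.6 CPM. The log2 fold change was 1.59 ± 0.33 (adjusted p 0.00433). Its 6 and 24 h DMSO libraries had 16.4 to 21.7 CPM, and its untreated libraries 26.5 and 31.1 CPM. Non-member repeats within 10 kb had a mean of 4.68 CPM with DMSO and 6.57 CPM with 5-FU at 12 h. The call was lost without DMSO replicate 1 or without 5-FU replicate 1 of the 12 h groups (adjusted p 0.065 and 0.0584).

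A solo LTR7B copy at chr19:53019741-53020173 had 5 and 2 counts in the 12 h DMSO libraries and 26 and 37 in the 12 h 5-FU libraries (log2 fold change 2.78 ± 0.54, adjusted p 0.00253). The DMSO values at 12 h, 1.85 and 0.765 CPM, were below those at 6 and 24 h, which lay between 3.96 and 5.80 CPM. Its neighbours went from 12.8 to 19.1 CPM. Against the 6 and 24 h DMSO libraries its log2 fold change was 0.98 (adjusted p 0.0653), and without DMSO replicate 2 of the 12 h group the adjusted p was 0.055. A second solo LTR7B copy on that chromosome, chr19:53202568-53202982, had 9 and 16 counts with DMSO and 62 and 31 with 5-FU at 12 h (1.52 ± 0.43, adjusted p 0.0289), while its neighbours went from 31.3 to 57.4 CPM. Its call was lost without either 12 h DMSO library or without replicate 1 of the 12 h 5-FU group, with adjusted p from 0.0567 to 0.289, and against the 6 and 24 h DMSO libraries (0.75, adjusted p 0.118). This copy was named in addition to the rule because only 4 copies were called higher.

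The LTR7C copy at chr19:9650019-9650447, which abuts HERVH-int, had 1 and 2 counts with DMSO and 13 and 17 with 5-FU at 12 h. The ratio of the summed counts, scaled for library size, was 7.76 with a 95% exact interval of 2.41 to 39.7 for counting error only. Its adjusted p was 0.0271, and the call was lost whichever 12 h library was left out. Against the 6 and 24 h DMSO libraries its log2 fold change was 0.78 (adjusted p 0.289). Its neighbours went from a mean of 2.65 CPM with DMSO to 5.10 CPM with 5-FU at 12 h. The solo LTR7C copy at chr14:24408785-24409253, which holds most LTR7C counts, had 22.2 and 25.2 CPM with DMSO and 32.9 and 49.7 CPM with 5-FU at 12 h (0.80 ± 0.27, adjusted p 0.0661).

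Among HERVH-int copies the fall with the smallest p at 12 h was at chr14:102706661-102707085, which covers the first 459 bases of the consensus and abuts an LTR. It had 53 and 53 counts with DMSO and 7 and 13 with 5-FU, or 19.6 and 20.3 against 2.06 and 3.77 CPM (log2 fold change -2.76 ± 0.44, adjusted p 0.000413). The call held whichever 12 h library was left out. The non-member repeats within 10 kb fell alongside, from a mean of 22.2 to 5.99 CPM. At 6 and 24 h its 5-FU libraries had 8.52 to 18.5 CPM and its DMSO libraries 10.4 to 15.7 CPM. Untreated cells had 4.25 and 2.39 CPM.

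The other called fall was at chr6:152812519-152816517, a HERVH-int copy that covers consensus positions 800 to 4842. It had 18 and 15 counts with DMSO and 0 and 2 with 5-FU at 12 h. That is a 21.3-fold lower sum, scaled for library size, with a 95% exact interval of 5.44 to 183 for counting error only. Its neighbours went from 4.92 to 0.733 CPM. The call was lost without replicate 1 of the 12 h 5-FU group (adjusted p 0.062) and against the 6 and 24 h DMSO libraries (-2.63, adjusted p 0.057). Both HERVH-int copies that fell at 12 h therefore lay among repeats that were lower in the same libraries. Likewise, the neighbours of the 4 LTR copies called higher at 12 h had higher means with 5-FU, by log2 ratios of 0.49 to 0.95. The part of the neighbours in these calls was not tested.

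At 6 h of 5-FU no member copy was called, with 0.101% of all copies called and 0 members called with DESeq2. At an unadjusted p under 0.05 in edgeR were 8 of 86 members and 4690 of all 63602 tested copies. At 24 h 1 member copy was called higher and 1 lower, where 4.23% of all copies were called, 2.42% higher and 1.82% lower. The higher one was HERVH-int at chr9:21488395-21491043, which covers the first 2629 bases of the consensus. It had 11 and 6 counts with DMSO and 43 and 47 with 5-FU, or 2.06 and 1.03 against 9.96 and 7.28 CPM (2.46 ± 0.45, adjusted p 0.00173). At 12 h it had 4.08 and 4.21 CPM with DMSO and 9.41 and 9.29 CPM with 5-FU (1.17 ± 0.44, adjusted p 0.0954), and at 6 h 6.87 and 4.69 against 3.43 and 3.99 CPM. Its neighbours had a mean of 12.3 CPM with DMSO and 35.3 CPM with 5-FU at 24 h, the latter from 16.7 and 53.9 CPM. At 12 h the neighbours went the other way from the copy, from a mean of 38.4 CPM with DMSO to 25.7 CPM with 5-FU. Without DMSO replicate 2 of the 24 h group the call was lost (2.01, adjusted p 0.0724). The same copy was the only member called for the effect at 24 h minus that at 6 h, higher at 24 h, where 0.385% of all copies were called and 0.0865% higher.

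Between DMSO and untreated cells 3 member copies were called, where 1.66% of all copies were, 0.643% higher and 1.02% lower in DMSO. The HERVH-int copy at chr14:102706661-102707085 was higher in DMSO, with 10.4 to 20.3 CPM against 4.25 and 2.39 CPM (2.12 ± 0.38, adjusted p 0.0046). The solo LTR7C copy at chr14:24408785-24409253 was lower, with 22.2 to 40.3 CPM against 49.5 and 52.0 CPM (-0.85 ± 0.20, adjusted p 0.0348). The solo LTR7B copy at chr19:53202568-53202982 was lower as well, with 3.34 to 9.78 CPM against 16.5 and 17.0 CPM (-1.31 ± 0.30, adjusted p 0.0262). In each of the 3 copies the 6 DMSO libraries and the 2 untreated libraries did not overlap, and each call was lost without either untreated library, with adjusted p from 0.0543 to 0.264. The LTR7C call was also lost without any of 5 single DMSO libraries and the LTR7B call without any of 3.

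**Figure D4:**
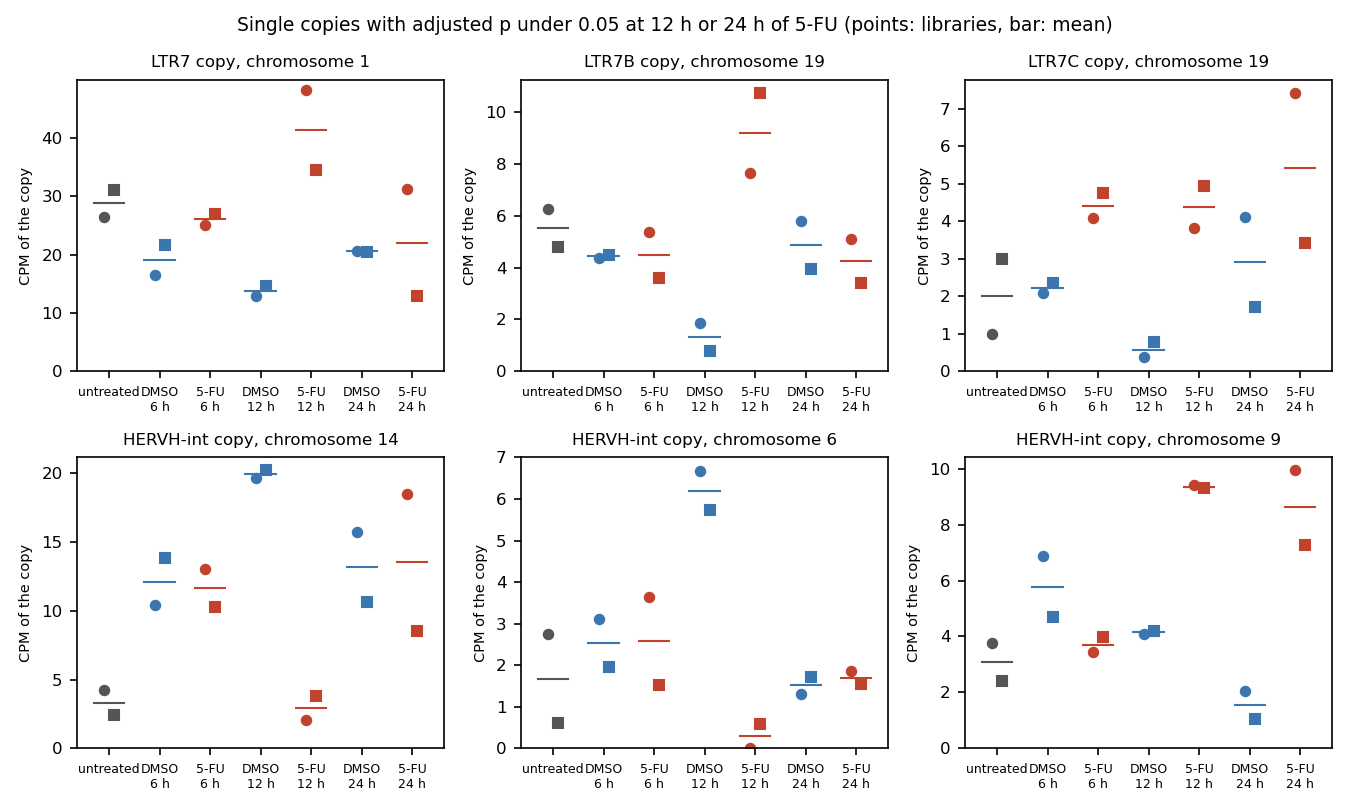
Level of 6 called member copies in each library of the 5-FU table (vertical axes, CPM; horizontal axes, group; circles replicate 1, squares replicate 2, lines means; untreated grey, DMSO blue, 5-FU red). The 3 LTR copies lie higher and the chromosome 14 and 6 HERVH-int copies lower with 5-FU at 12 h, and the chromosome 9 HERVH-int copy lies higher at 12 and 24 h, with a call at 24 h only.

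The remaining calls lay in a set of copies on chromosome 16 that are called near-identical here. There 6 units between positions 21450365 and 30271363 each hold a HERVH-int copy of 560 bases that covers consensus positions 7157 to 7713, an abutting LTR7B copy and a further LTR7B copy beside it. The copies were named for this shared layout, and their sequences were not compared. Counts for these copies jumped between replicates. Of 41 pairs of replicates in which a single copy had at least 10 counts in 1 replicate, 29 had 0 in the other, against 15 of 337 pairs for all other member copies. Summed over the 6 copies of a kind, 0 of 20 pairs did so. For the Nutlin table this was 7 of 9 pairs for single copies and 0 of 6 for the sums. Levels of single copies in this set are therefore uncertain, and sums are given.

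Single-copy calls in this set were HERVH-int at chr16:30270804-30271363, higher with Nutlin (44 counts against 2, a ratio of 21.1 with a 95% exact interval of 5.51 to 180), and HERVH-int at chr16:21882633-21883192, at least 34.1-fold lower with 5-FU at 24 h (0 counts against 212, with 3 counts in each library as the floor). The first is the only member copy called with Nutlin, where 9.57% of all copies were called and 5.36% higher, and it was lost without Nutlin replicate 2 (adjusted p 0.0613). DESeq2 did not call the second (adjusted p 0.428). In the sums neither was called. HERVH-int of this set had 0.18 ± 0.39 with Nutlin (adjusted p 0.839) and -0.10 ± 0.43 at 24 h (adjusted p 0.946).

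At 12 h the sums of all 3 kinds fell. HERVH-int of the set had 37 and 45 counts with DMSO and 19 and 3 with 5-FU (log2 fold change -2.25 ± 0.57, adjusted p 0.0149). The abutting LTR7B copies had 15 and 15 against 6 and 3 counts (-2.08 ± 0.55, adjusted p 0.0199), and the LTR7B copies set apart had 33 and 23 against 4 and 12 (-2.16 ± 0.66, adjusted p 0.0412). At 6 h, 24 h and with Nutlin none of the 3 sums was called. LTR7B copies of this set thus fell at 12 h while LTR7B as a name rose. Without the set the name LTR7B had 0.86 ± 0.17 (adjusted p 0.00169) and HERVH-int -0.44 ± 0.16 (adjusted p 0.0503), so the set held part of the HERVH-int fall and offset part of the LTR7B rise.

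**Figure D5:**
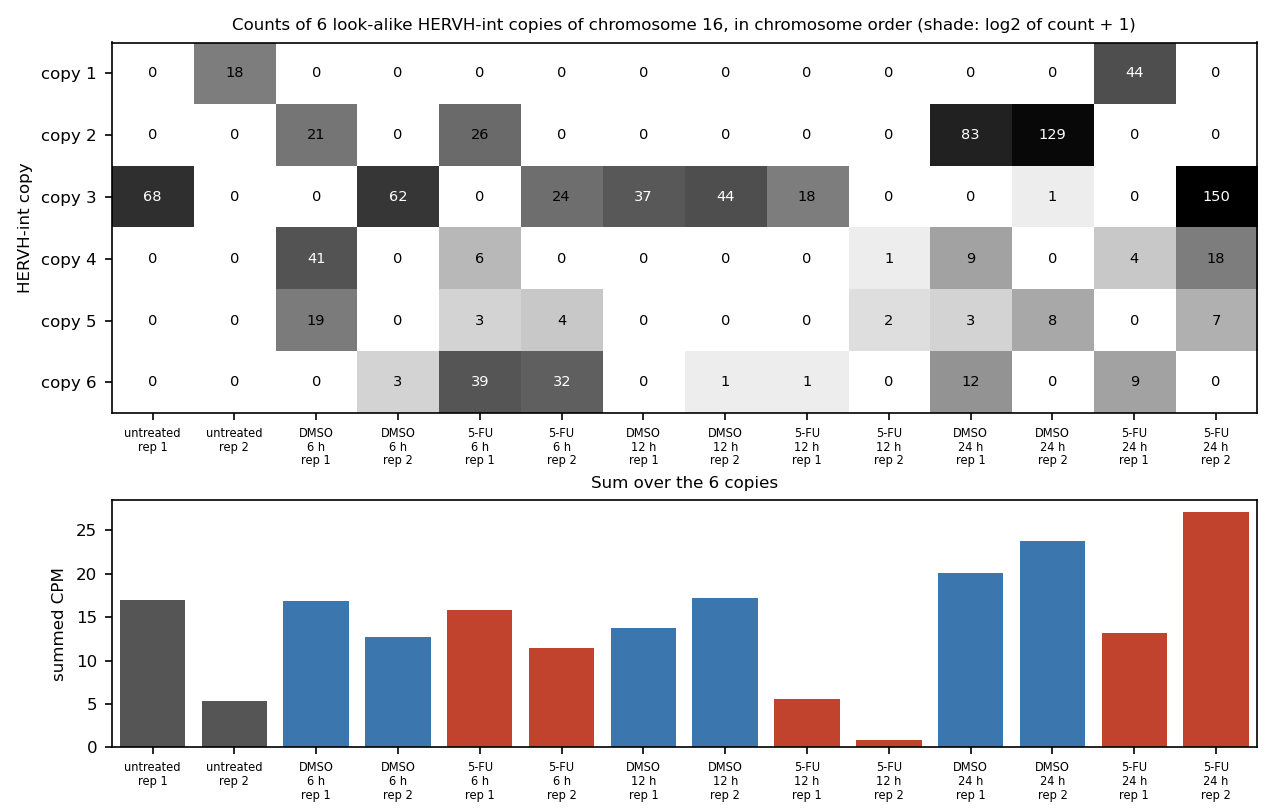
Upper panel: counts of the 6 near-identical HERVH-int copies of chromosome 16, in chromosome order, in each library of the 5-FU table (shade, log2 of the count plus 1). Lower panel: their sum in each library (vertical axis, CPM, with untreated grey, DMSO blue and 5-FU red). The sum is low in both 12 h 5-FU libraries (5.59 and 0.871 CPM) and in untreated replicate 2 (5.38 CPM). In the upper panel most counts of a library sit on 1 or a few copies, and these differ between replicates.

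Along the consensus, both 12 h 5-FU libraries lay below both 12 h DMSO libraries in 14 of 16 bins, with log2 ratios of the means from -1.27 to 0.19 over the bins. The same held for 7 of 16 bins at 6 h and 1 of 16 at 24 h. Without the near-identical copies of chromosome 16 it was 13 of 16 bins at 12 h, 7 at 6 h and 3 at 24 h, with the same range of log2 ratios at 12 h. Bins share copies that span several of them, so these are not 16 separate measurements.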

How the data were processed

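The authors deposited raw read counts per annotated repeat copy in 2 tables, one per drug. The labels give total RNA and a stranded library kit; the submitters' processing notes name hg19, Trimmomatic 0.32, cutadapt, Bowtie2, edgeR and DESeq2 without roles. How reads that match several copies were placed is not given in the sources used here, nor is the strand of a copy.

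Copies and name sums were tested with edgeR 4.0.16 (quasi-likelihood test, TMM scaling, R 4.3.3) on all copies or names of a table that passed filterByExpr, with 1 mean per group and Benjamini-Hochberg adjustment over all of them. CPM are counts divided by the scaled library size, times 1000000. Name sums used TMM factors from all copies with a count. Calls have an adjusted p under 0.05. Ratios of counts were tested by exact permutation in scipy 1.17.1. DESeq2 1.42.0, other scalings and filters, and fits without 1 library were alternatives. The scripts were tested on simulated data.

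Members, lists and tests were chosen with earlier results of these data known. Named copies are the 3 with the highest mean CPM in each table and, in each comparison, up to 3 called copies in each direction with the smallest p. Near-identical copies were summed as an alternative chosen after seeing the data, as were sums, ratios and consensus bins without them, scaling from filtered copies and densities without the most abundant copy.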

Additional observations from a re-analysis of the deposited data

Results flagged for a closer look

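The HERVH-int copy at chr9:21488395-21491043 responded differently to 5-FU at 24 h and at 6 h by a test of that difference. The effect at 24 h minus the effect at 6 h was 3.09 ± 0.61 on the log2 scale (adjusted p 0.0215 in edgeR's quasi-likelihood test), and it was the only member copy called for this difference, where 0.385% of all copies were called. It had 33 and 24 counts with DMSO and 16 and 21 with 5-FU at 6 h, and 11 and 6 against 43 and 47 at 24 h. The call was lost when DMSO replicate 1 or either 5-FU library of the 6 h groups, or DMSO replicate 2 of the 24 h group, was left out, with adjusted p from 0.077 to 0.168. Non-member repeats within 10 kb had 48.7 CPM with DMSO and 35.0 CPM with 5-FU at 6 h, and 12.3 and 35.3 CPM at 24 h. Their part in the result was not tested.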

How the results depend on the processing

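Of the alternative values computed for single names and copies, 803 kept their direction and their side of the threshold, 107 lost a call, 15 gained one and 54 turned sign. Of the last, 2 were of a called value, LTR7B at 12 h. The cause of these changes was not tested, apart from the settings that by construction test fewer or more copies or use fewer libraries. What single copies can show is limited by member counts per library of 1150 to 3377 with 5-FU and its controls and of 1265 to 1875 with Nutlin and its own. The alternative that would keep only LTRs on the strand of their HERVH-int was not run, because the tables hold no strand.

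Replicate numbers did not pair the samples: the correlation of same-numbered deviations from the group means was -0.003, -0.016 and 0.14 at 6, 12 and 24 h of 5-FU and -0.003 for Nutlin. With the replicate number as a block, HERVH-int at 12 h was no longer called (-0.51, adjusted p 0.0516), near LTR copies at 24 h were (0.41, adjusted p 0.0366), and the exact permutation p was 0.0625 for the LTR to HERVH-int ratio and 0.281 for the near to solo ratio. No other call changed under the block.

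Member copies called at 12 h of 5-FU, 6 in the report, were 2 where every library needed at least 10 counts and 13 against the 6 and 24 h DMSO libraries. At 24 h the 2 became 0 with at least 10 counts, 1 with DESeq2, 1 with the near-identical copies summed and 6 without a filter. At 6 h the 0 became 1 with only the libraries of the comparison and 3 without a filter. For the 24 h effect minus the 6 h effect the 1 became 0 at an adjusted p under 0.01, 0 with at least 10 counts and 4 without a filter. The 3 between DMSO and untreated cells became 1 at an adjusted p under 0.01, 1 with the 6 h DMSO libraries alone and 7 without a filter. The 1 with Nutlin became 0 at an adjusted p under 0.01, 0 with the near-identical copies summed, 2 with library totals and 4 without a filter. Shares of all copies called under these alternatives, or in the fits without 1 library given below, are not given. The counts therefore do not compare members with other copies.

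Member names called at 12 h, 4 in the report, were 2 at an adjusted p under 0.01, 1 with library totals, 1 without the most abundant copy of each name and 2 against the 6 and 24 h DMSO libraries. They were 3 with RLE size factors, with factors from the name sums and with factors from the filtered copies, LTR7B being lost in each (adjusted p 0.247, 0.0892 and 0.175). The 2 between DMSO and untreated cells became 1 at an adjusted p under 0.01, 1 with library totals, 1 with the 6 h DMSO libraries alone, 0 with those of 24 h alone and 0 without the most abundant copy. With RLE and both other sets of factors they were 2 of another make-up, LTR7C lower and HERVH-int higher, and with DESeq2 3. Over all 1078 names, calls at 12 h were 307 higher and 57 lower in the report. They were 61 and 436 with library totals, 163 and 233 with RLE, 194 and 182 with factors from the name sums and 182 and 203 with factors from the filtered copies. Other shares of all names are not given here, nor for fits without 1 library, so these counts do not compare members with other names. The LTR to HERVH-int ratio, 0.51 in log2 units, was 0.65 for copies named LTR7, with an exact permutation p under 0.05. The near to solo ratio, 0.14, was 0.32 for copies named LTR7 and 0.32 without the near-identical copies, and passed in both.

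Leaving out 1 library at a time, member copies called ranged from 2 to 5 at 12 h, where the 2 is without 5-FU replicate 1 and 3 without DMSO replicate 1. At 24 h they ranged from 1 (without DMSO replicate 2) to 6 (without 5-FU replicate 1), with 4 without 5-FU replicate 2. They were 0 at 6 h, and 0 to 1 for the 24 h effect minus the 6 h effect, with 0 without 24 h DMSO replicate 2 or 6 h 5-FU replicate 1. Against untreated cells they were 0 to 2, with 0 without either untreated library and 1 without 6 h DMSO replicate 2 or 12 h DMSO replicate 1. With Nutlin they were 0 to 3, with 0 and 2 without Nutlin replicates 2 and 1 and 3 without DMSO replicate 2. Member names called were 1 to 2 at 12 h, with the 1 without 5-FU replicate 2. They were 0 to 1 at 24 h, with the 1 without 5-FU replicate 2, 0 to 2 against untreated cells, with the 0 without untreated replicate 2, and 0 to 1 with Nutlin, with the 1 without DMSO replicate 1. The LTR to HERVH-int ratio ranged from 0.43 to 0.60, with an exact permutation p under 0.05 only without replicate 2 of the 24 h 5-FU group (0.0185), and the near to solo ratio from 0.10 to 0.18.

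These log2 fold changes turned sign under another scaling. At 24 h HERVH-int was -0.040 with RLE size factors, -0.15 with library totals and -0.075 with factors from the name sums, and LTR7B was -0.066, -0.19 and -0.095, and -0.024 with factors from the copies that passed the filter. LTR7B at 12 h was -0.037 with library totals. Near LTR copies at 6 h were -0.0018 with RLE and -0.020 with library totals, and solo ones -0.017 with library totals. For the 24 h effect minus the 6 h effect LTR7 was -0.020 with library totals and -0.040 with factors from the name sums. Against untreated cells LTR7B was 0.033 with RLE and 0.056 with factors from the filtered copies, and LTR7Y 0.050 and 0.071. With Nutlin HERVH-int was -0.033 and solo LTR copies -0.063 with library totals.

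Other controls or fewer copies also turned signs. With only the libraries of the comparison HERVH-int and LTR7B at 24 h were -0.043 and -0.068. Against the 6 and 24 h DMSO libraries LTR7B at 12 h was -0.070. With the DMSO libraries of 6 h alone against untreated cells LTR7B was 0.054, LTR7Y 0.075 and near LTR copies 0.0038, and with those of 24 h alone LTR7B was 0.14 and LTR7Y 0.32. Without the most abundant copy LTR7C was 0.37 at 24 h and 0.31 for the 24 h effect minus the 6 h effect, LTR7B was 0.12 against untreated cells, and solo LTR copies were 0.043 at 24 h and -0.032 with Nutlin. Without the near-identical copies LTR7B was 0.023 at 6 h and near LTR7B copies were 0.67 at 12 h.

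Leaving out 1 library gave values of both signs for HERVH-int at 6 h (-0.15 to 0.040), 24 h (-0.13 to 0.23) and the 24 h minus 6 h effect (-0.070 to 0.28). It did so for LTR7B at 6 h (-0.28 to 0.14), 24 h (-0.014 to 0.091) and their difference (-0.10 to 0.32), and for its near copies at 12 h (-0.35 to 0.081). The same held for LTR7 in that difference (-0.090 to 0.17) and with Nutlin (-0.19 to 0.065), for LTR7C at 24 h (-0.20 to 0.12), for solo LTR copies at 24 h (-0.19 to 0.073), and for LTR7Y at 6 h (-0.45 to 0.60), against untreated cells (-0.35 to 0.26) and with Nutlin (-0.044 to 0.44).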
